A study of Mus musculus with 55 samples.

Results

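Cortex from mice fed PLX5622 was compared between 7 days and 1 day after a diffuse traumatic brain injury (TBI), to describe how the early response changed over that week in tissue with few microglia. The 9 mice at 7 days and the 8 mice at 1 day, chosen by the diet and the day in their labels, are 17 of the 55 mice in the series. All were adult male C57BL/6 mice, bought at 8 to 10 weeks of age. They ate AIN-76A chow holding PLX5622 at 1200 mg/kg for 14 days before TBI and stayed on it until tissue was taken. The groups had therefore eaten the drug for 15 and 21 days, and time on the drug and time after injury cannot be told apart. The reference groups, from the same series, were 6 naive mice on PLX5622, for which the labels state no number of days on the diet, and, on plain AIN-76A chow (vehicle), 7 naive mice, 6 mice at 1 day and 7 mice at 7 days after TBI. The label of mouse 695, counted as a naive vehicle mouse, reads control but also carries a 7-day tag. Each mouse gave 1 library, read on a nanoString nCounter panel of 799 genes. Tissue was microdissected under the guidance of neighbouring sections stained for CD11b, the protein made from Itgam, so Itgam is no finding between these samples. The regions were chosen for hypertrophied and rod-shaped microglia, and the labels do not say how they were picked where few microglia remained.

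PLX5622 blocks the receptor CSF1R, whose signalling keeps microglia, the resident macrophages of the brain, alive. After a blow to the head, astrocytes become reactive, vessels and matrix are remodelled, and receptors for tumour necrosis factor and interleukins are induced, and much of this wanes again as the tissue settles. In intact brain, microglia take part in that response as a source of cytokines and of complement C1q.

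A level below is a normalised count: the barcode count of a gene divided by 1 size factor per library. Fold changes are differences of log2(level + 1), 7 days minus 1 day, with their standard error and with the nCounter cartridge as a covariate, and they understate changes of low genes. Genes with a limma adjusted p under 0.05 were called (Benjamini-Hochberg over the 799 genes, two-sided). Total counts per library ran from 176038 to 1129717 at 1 day and from 277458 to 1208609 at 7 days, with means that differed by 157385 (exact permutation test, two-sided, p = 0.361). In bulk tissue, fewer cells of a type and less RNA per cell cannot be told apart. Mice are named by the numbers in their labels, which link no mice across groups. Of the 17 mice, 1-day mouse 719 was the highest of its group in 8 of the 11 genes that fell and among the highest 2 in all 11. The 1-day mice 693 and 696 were the lowest in 5 each, and mouse 693 had the smallest library. At 7 days, mouse 709 was the highest in 8 of these 11 genes and mouse 694 the lowest in 7.

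Between 1 and 7 days, 19 of the 799 genes changed (2.38%): 11 fell (1.38%) and 8 rose (1%). At an unadjusted p under 0.05 the numbers were 74 lower (9.26%) and 46 higher (5.76%). The falls were led by Lox, Cd44, the receptor gene Tnfrsf12a and the small heat shock protein gene Hspb1. The rises were led by Cx3cr1, a gene of microglia, and Gja1, a gene of astrocytes. The ranges of the groups overlapped for every one of the 799 genes (0% without overlap). The number of calls depended on which mice were in the fit: with the 17 mice alone it was 2 (Lox and Gja1), and it was 9 without mouse 719, 35 without mouse 693, 30 without mouse 696 and 32 without mouse 701. All 19 differences had the same sign within each of the 3 RNA extraction batches, which held 3, 3 and 2 mice at 1 day and 2, 3 and 4 mice at 7 days. One of these values, Wfs1 in the first batch, was only -0.01. The genes were called from these same mice and no share over all genes is given beside the count, so it gives no separate support.

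Among genes of the matrix and its receptors, Lox encodes lysyl oxidase, which cross-links collagen and elastin. Its level ran from 23.4 to 252 at 1 day (median 56.6) and from 8.12 to 39.4 at 7 days (median 22.1). That is a log2 fold change of -1.56 ± 0.30 (adjusted p = 0.00143). Every 7-day mouse lay below the 1-day median and 5 of the 9 lay below every 1-day mouse. Cd44, the cell surface receptor for hyaluronan, ran from 45.4 to 316 at 1 day (median 175.8) and from 19.5 to 145 at 7 days (median 74.5). It fell by 1.38 on the log2 scale (SE 0.39, adjusted p = 0.0393), with 5 of the 8 mice at 1 day above every 7-day mouse. The list of matrix, adhesion and membrane-actin genes had 19 members measured, of which Lox and Cd44 fell and Lama2, described below, rose, and its median log2 fold change was -0.28 beside -0.02 over all genes.

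**Figure D1:**
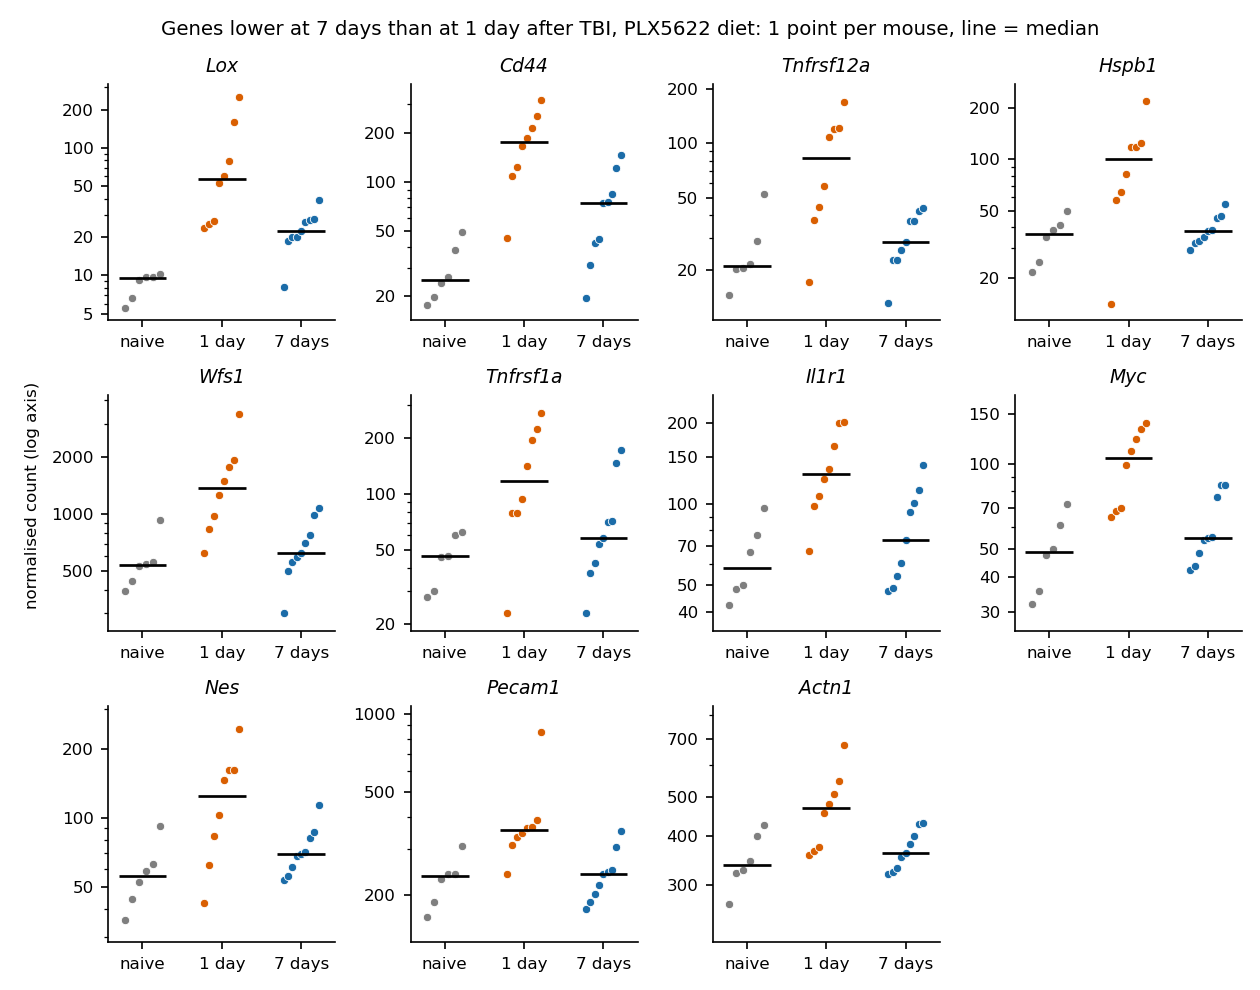
Normalised counts (log axis) of the 11 genes called lower at 7 days than at 1 day after TBI on PLX5622, with 1 point per mouse, in 6 naive mice, 8 mice at 1 day and 9 mice at 7 days; the line is the median. In each panel the 1-day median is the highest of the 3, and the ranges at 1 and 7 days overlap.

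Genes for 3 receptors of inflammatory cytokines fell. Tnfrsf12a, the receptor for the cytokine TWEAK, stood at 17.0 to 169 at 1 day (median 83.1) and at 13.1 to 43.9 at 7 days (median 28.6). Its log2 fold change was -1.29 ± 0.34 (adjusted p = 0.0222), and 6 of the 8 mice at 1 day lay above every 7-day mouse. Tnfrsf1a, a receptor for tumour necrosis factor, ran from 22.7 to 271 at 1 day (median 117) and from 22.7 to 171 at 7 days (median 57.8), with 7 of the 9 mice at 7 days below the 1-day median. Its log2 fold change was -0.98 ± 0.27 (adjusted p = 0.034). Il1r1, the signalling receptor for interleukin 1, ran from 67.0 to 203 and then from 47.7 to 140.5, with medians of 129.6 and 73.7 and a log2 fold change of -0.83 ± 0.21 (adjusted p = 0.0192). These were the members called among 33 measured genes of the list of inflammatory cytokines, TNF and NF-kB: 3 fell, 0 rose and 30 were not called. The list's median log2 fold change was -0.29, and 27 of its 33 values were negative, beside 418 of 799 over all genes. Ligand genes in the list, Tgfb1 aside, are named here after their values were seen, and none was called. Il1a stood at 0.44 ± 0.22, the highest value of the list, and Il1b at -0.34 ± 0.29. The others were Tnf at 0.07 ± 0.32, Il6 at 0.10 ± 0.12, Il10 at 0.04 ± 0.38 and Fasl at -0.31 ± 0.22. Tgfb1, a growth factor gene that restrains inflammation, stood at -0.68 ± 0.20 (adjusted p = 0.0541), and was called without any of the mice 693, 696, 701, 709, 711 and 734 in turn.

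Hspb1, Wfs1 and Myc fell as well. Hspb1 was the only gene called of 21 measured in the list of apoptosis and cell stress, and Myc the only one of 11 in the list of growth and cell cycle entry, each list with a median log2 fold change of -0.20. Hspb1, a small heat shock protein that protects proteins and actin filaments under stress, ran from 14.2 to 220 at 1 day (median 100.3) and from 29.2 to 54.8 at 7 days (median 37.9). It fell by 1.16 on the log2 scale (SE 0.26, adjusted p = 0.00902), and 7 of the 8 mice at 1 day lay above every 7-day mouse, while the eighth, mouse 693, lay below all of them. Wfs1, a protein of the endoplasmic reticulum membrane, ran from 628 to 3399 (median 1385) and then from 300.3 to 1076 (median 623), a log2 fold change of -1.08 ± 0.25 (adjusted p = 0.0103). Every 7-day mouse lay below the 1-day median of Wfs1. Myc, a transcription factor of cell growth, ran from 65.1 to 140 (median 105) and then from 42.2 to 84.3 (median 54.7), a log2 fold change of -0.78 ± 0.18 (adjusted p = 0.00902). For Myc, 6 of the 9 mice at 7 days lay below every 1-day mouse.

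Nes, the intermediate filament nestin of progenitors and reactive astrocytes, ran from 42.5 to 246 at 1 day and from 53.6 to 114 at 7 days, with medians of 125 and 69.8. Its log2 fold change was -0.73 ± 0.20 (adjusted p = 0.0364). Pecam1, an adhesion molecule of endothelium, had medians of 356 and 242 and a log2 fold change of -0.70 ± 0.18 (adjusted p = 0.0222). Actn1, an actin cross-linker, had medians of 468.5 and 362 and the smallest called fall, -0.38 ± 0.10 (adjusted p = 0.034). For all 3 of these genes every 7-day mouse lay below the 1-day median. Pecam1 was the only called gene of 13 measured in the endothelium, pericyte and barrier list, whose median was -0.27. Summed levels of that list ran from 1448 to 3199 at 1 day and from 1366 to 2589 at 7 days, and their part in the fall of Pecam1 was not tested.

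Within the first extraction batch, with 3 and 2 mice, several falls were small: -0.01 for Wfs1, -0.07 for Nes, -0.19 for Tnfrsf12a and -0.29 for Hspb1. In the second batch the same genes stood at -1.74, -1.09, -1.51 and -1.66, and in the third at -1.12, -1.0, -2.14 and -1.50. The 1-day mice 693 and 696, often the lowest of their group, belong to that first batch. The difference between batches was not tested.

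The list of reactive astrocytes and glial stress had 13 measured members, all with a negative log2 fold change and a median of -0.57. Of these 13, 4 fell (Cd44, Hspb1, Il1r1 and Nes), 0 rose and 9 were not called. Cd44, Hspb1 and Il1r1 also stand in lists described above. Stat3, the transcription factor through which cytokines of the interleukin 6 family drive astrocyte reactivity, stood at -0.57 ± 0.20 (adjusted p = 0.114), and Osmr, the oncostatin M receptor, at -0.76 ± 0.27 (adjusted p = 0.117). Neither passed the test, although Stat3 was called when mouse 693 was left out. The list of gp130 cytokines and Stat3, which also holds Stat3 and Osmr, had 6 measured members, of which 0 were called, with a median of -0.34.

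Gfap, the intermediate filament by which reactive astrocytes are recognised, was lower in median at 7 days but did not pass the test. It ran from 2032 to 4619 at 1 day (median 3260) and from 423 to 9417 at 7 days (median 2205), beside 146 to 645 in naive mice on PLX5622. Its log2 fold change was -0.56 ± 0.50 (adjusted p = 0.642, not called). The 7-day mice spread on both sides of the 1-day group: 3 of 9 (687, 709 and 734) lay above every 1-day mouse and 4 of 9 (694, 701, 717 and 723) below every one. Against naive mice on the same diet Gfap was called higher at both days, by 3.10 (adjusted p = 0.000138) and by 2.55 (adjusted p = 0.00521).

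Windows are reported here for 8 of the 11 genes that fell. Upstream DNA is shown, so that a reader can see the sequence, for the 2 of these 8 with a match to 1 of 3 motifs in their first RefSeq window. The windows are RefSeq's on GRCm38.p6 and hold 250 bases before and 50 after the annotated start of the gene; the 250 upstream bases are printed, 5′ to 3′ on the gene's strand, with each match in capitals. Motifs were searched on both strands, as TGANTCA (AP-1), TTCNNNGAA (STAT) and GAANNTTC (heat shock element), and the matches shown do not overlap another motif. Hspb1 lies at chr5:135887669-135887918 (plus strand), with heat shock element matches that begin 117 and 97 bases before the start site. Tnfrsf1a lies at chr6:125349473-125349722 (plus strand), with 1 STAT match that begins 244 bases before the start site.
Hspb1: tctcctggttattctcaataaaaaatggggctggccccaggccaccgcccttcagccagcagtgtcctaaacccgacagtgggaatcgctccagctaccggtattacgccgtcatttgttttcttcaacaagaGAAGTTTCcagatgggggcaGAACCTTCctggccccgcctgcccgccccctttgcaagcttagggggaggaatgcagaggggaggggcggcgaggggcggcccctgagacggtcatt
Tnfrsf1a: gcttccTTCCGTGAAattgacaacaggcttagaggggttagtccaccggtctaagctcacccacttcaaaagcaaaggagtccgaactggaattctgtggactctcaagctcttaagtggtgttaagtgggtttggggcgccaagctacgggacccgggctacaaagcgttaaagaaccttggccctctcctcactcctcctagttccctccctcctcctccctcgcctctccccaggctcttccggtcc
Over all 32851 windows, 7.81% held the AP-1 motif, 8.3% the STAT motif and 7.86% the heat shock element, and over the 793 windows of genes on the panel the shares were 7.06%, 6.31% and 6.05%. Of the 11 genes that fell, no window is reported here for Lox, Myc and Pecam1. Among the first windows of the other 8, 0 held AP-1, 1 held STAT and 1 held the heat shock element. Among those of the 8 genes that rose the numbers were 1, 0 and 1.

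Gja1 and S100b, members of the astrocyte identity list described below, rose, as did Apoe. Apoe was the only called gene of 26 measured in the list of neurodegeneration-associated genes, whose median log2 fold change was 0.03. Gja1, which encodes the main connexin of astrocyte gap junctions, ran from 218 to 341 at 1 day (median 282) and from 313 to 979 at 7 days (median 561), beside 299 to 447 in naive mice. Its log2 fold change was 1.02 ± 0.18 (adjusted p = 0.000348), the smallest p of all genes. Every 7-day mouse lay above the 1-day median and 7 of 9 above every 1-day mouse; mice 701 and 694 lay within the 1-day range. S100b, a calcium-binding protein of astrocytes, ran from 156 to 250 at 1 day (median 184) and from 214 to 413 at 7 days (median 292), a log2 fold change of 0.57 ± 0.15 (adjusted p = 0.0222). Apoe, the lipid carrier made chiefly by astrocytes, ran from 350.5 to 556 (median 462) and then from 512 to 1113 (median 688), a log2 fold change of 0.59 ± 0.16 (adjusted p = 0.0258). All 9 mice at 7 days lay above the 1-day median of S100b and of Apoe.

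The upstream bases of Gja1, chr10:56377050-56377299 (plus strand), are shown as those of the gene with the smallest p, with 1 AP-1 match in capitals that begins 19 bases before the start site.
Gja1: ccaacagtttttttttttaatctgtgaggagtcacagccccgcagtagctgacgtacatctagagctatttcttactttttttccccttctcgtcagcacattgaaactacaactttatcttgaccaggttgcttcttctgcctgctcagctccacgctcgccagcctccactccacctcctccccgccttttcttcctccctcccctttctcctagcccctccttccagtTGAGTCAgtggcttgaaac

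Grin2c, Plxnb1, Lama2 and AI464131 also rose. Grin2c, the GluN2C subunit of the NMDA receptor, ran from 87.9 to 163 (median 133) and then from 151.5 to 244 (median 175), a log2 fold change of 0.57 ± 0.14 (adjusted p = 0.014). It was the only one called of 19 measured genes of glutamate signalling, whose median was -0.03. Plxnb1, plexin B1, a receptor for semaphorins, ran from 62.4 to 114.5 (median 102) and then from 106 to 246 (median 134), and rose by 0.61 ± 0.15 (adjusted p = 0.014), with 8 of 9 mice at 7 days above every 1-day mouse. Lama2, a laminin chain of basement membranes, rose by 0.54 ± 0.14 (adjusted p = 0.0222; medians 92.8 and 140). AI464131, which RefSeq lists as Myorg, a predicted glycosidase, rose by 0.46 ± 0.13 (adjusted p = 0.0428; medians 145 and 193). The 7-day mouse 734 was the highest of its group in 5 of the 8 rises and among the highest 2 in all 8, and mouse 709 was among the highest 2 in 7.

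Not all astrocyte genes moved. Of 10 measured members of the list of astrocyte identity and transport, 2 rose (Gja1 and S100b), 0 fell and 8 were not called. Among the 10 values 6 were positive and 4 negative, and the median log2 fold change was 0.04. Aqp4, the water channel of astrocyte endfeet, stood at 0.55 ± 0.23 (adjusted p = 0.212, not called). Summed levels of the list ran from 14070 to 30750 at 1 day and from 12830 to 29190 at 7 days. Most of that sum is 1 gene, the glutamate transporter gene Slc1a2 (means 19180 and 19020, log2 fold change 0.06, adjusted p = 0.89), named here after its values were seen, so the sum says little of the other members.

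**Figure D2:**
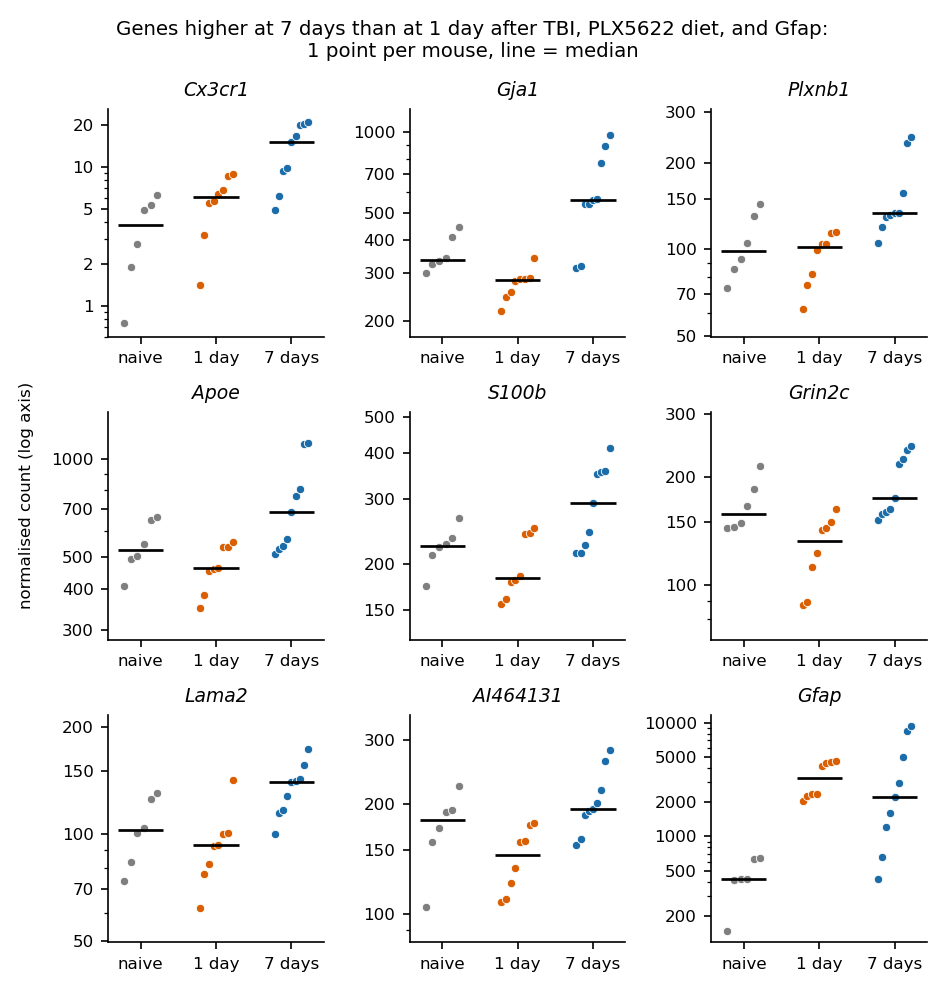
Normalised counts (log axis) of the 8 genes called higher at 7 days than at 1 day after TBI on PLX5622, and of Gfap, which was not called, with 1 point per mouse in naive, 1-day and 7-day groups (n = 6, 8 and 9) and the median as a line. Gja1 at 7 days runs from 313 to 979, while Gfap at 7 days spreads from 423 to 9417 around the 1-day group.

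Cx3cr1, the fractalkine receptor of microglia, was the largest rise among called genes. Its levels were very low on this diet: 1.40 to 8.87 at 1 day (median 6.03) and 4.92 to 21.0 at 7 days (median 15.1), which correspond to 2 to 9 and 6 to 41 recovered counts per library. The log2 fold change was 1.13 ± 0.30 (adjusted p = 0.0222), and 7 of 9 mice at 7 days lay above every 1-day mouse. With a pseudocount of 10 it was 0.57 (adjusted p = 0.0813). The means of Cx3cr1 were 3.09% of the vehicle mean at 1 day and 8.12% at 7 days, with the shares of other microglial genes given below. Within the 3 extraction batches the difference was 0.91, 1.24 and 1.43.

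The chains of complement C1q, the starter of the classical complement pathway, stood higher at 7 days without passing the test. C1qb ran from 3.41 to 48.2 at 1 day (median 12.5) and from 11.4 to 181 at 7 days (median 38.4), a log2 fold change of 1.62 ± 0.49 (adjusted p = 0.0548, called without mouse 693, 694 or 725). C1qa stood at 1.31 ± 0.45 (adjusted p = 0.113, called without mouse 711) and C1qc at 1.35 ± 0.53 (adjusted p = 0.171). Mice 734, 709 and 739 carried the highest summed C1q levels, 409, 178.5 and 170, while the remaining 7-day mice ran from 26.0 to 71.8 and the 1-day mice from 10.8 to 82.2. These 3 mice share the third extraction batch. Of 8 measured complement genes 0 were called, and the list's median was 0.15. As a share of the vehicle mean, C1qa stood at 2.33% at 1 day and 7.96% at 7 days, C1qb at 2.33% and 6.96%, and C1qc at 2.38% and 7.51%.

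Other genes of microglia did not pass the test. Csf1r, the drug's target, stood at 0.41 ± 0.33 (adjusted p = 0.608), P2ry12, a purinergic receptor of microglia, at 0.38 ± 0.23 (adjusted p = 0.469), Trem2, a lipid-sensing receptor, at 0.30 ± 0.32 (adjusted p = 0.705) and Tmem119, a membrane protein of microglia, at -0.06 ± 0.16 (adjusted p = 0.914). As a share of the vehicle mean, Csf1r stood at 5.24% at 1 day and 6.61% at 7 days, while the shares were lower at 7 days for P2ry12 (6.51% and 5.54%), Trem2 (16.7% and 13.3%) and Tmem119 (26.9% and 23.3%). These shares are descriptions with no test. Itgam stood at 0.06 ± 0.40 and Aif1, a calcium-binding protein of microglia and macrophages, at 0.23 ± 0.22. Aif1 was low on both diets, with means at 1 and 7 days of 13.62 and 15.39 on PLX5622 and 13.25 and 12.92 on vehicle. In naive mice its means were 12.53 on PLX5622 and 15.39 on vehicle. Its level did not separate the diets, so its step says little of microglia here. Of 16 measured genes in the microglia list, Cx3cr1 rose, 0 fell and 15 were not called, and the median log2 fold change was 0.17. Summed levels of the list ran from 278 to 493.2 at 1 day and from 252.4 to 551 at 7 days, against 1730 to 2273 in naive mice on vehicle. Cd68, a lysosomal protein of phagocytes, stood at -0.51 ± 0.28 (adjusted p = 0.408).

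Markers of border macrophages and infiltrating leukocytes could also be present in such tissue. Of the 8 measured, 0 were called, none was at 0 in every mouse of a group, and Ly6g, a neutrophil marker named like Ccr2 after its values were seen, had a mean of 2.48 at 1 day and 3.00 at 7 days. Summed levels ran from 48.3 to 108 at 1 day and from 39.2 to 233 at 7 days, the highest being mouse 701 with 138 for Ccr2, a chemokine receptor of monocytes. Their part in the differences of Cx3cr1 and C1q was not tested.

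**Figure D3:**
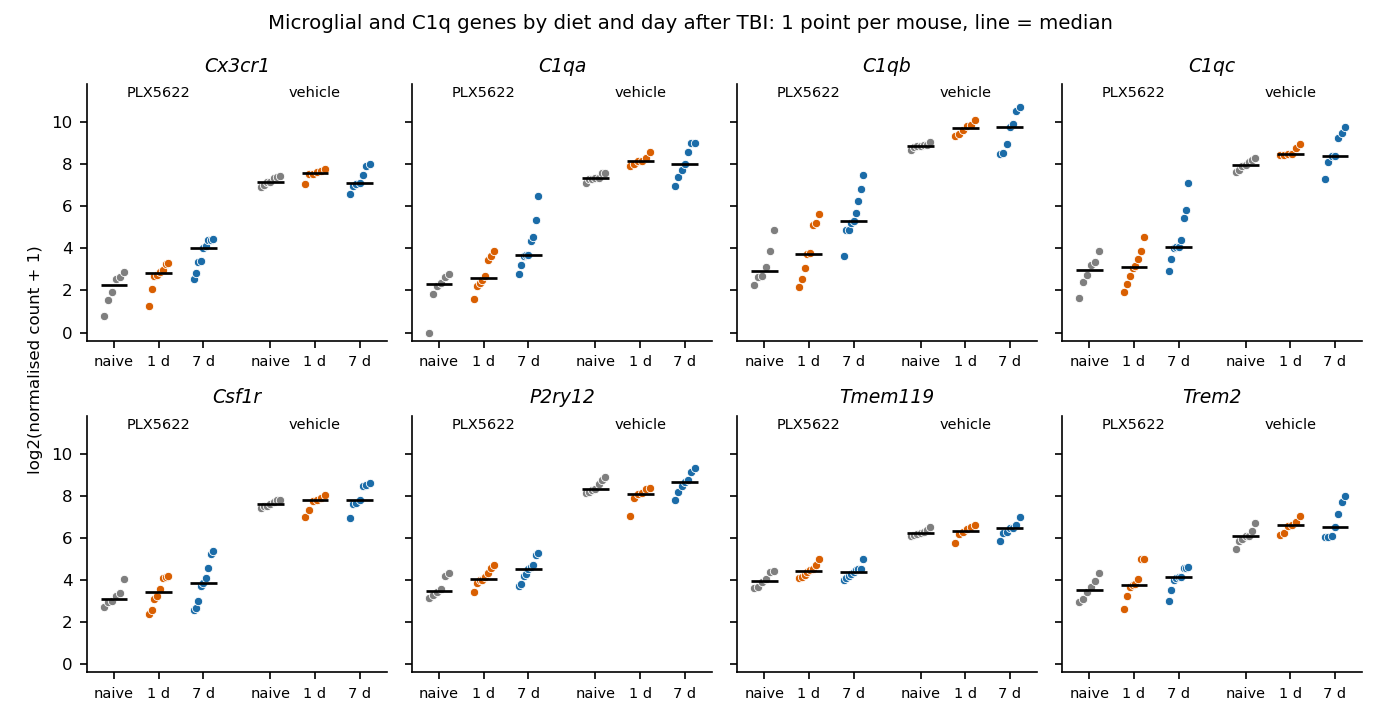
log2(normalised count + 1) of 5 microglial and 3 C1q genes in naive mice and at 1 and 7 days after TBI on PLX5622 and on vehicle, with 1 point per mouse and the median as a line. On PLX5622 Cx3cr1 and the C1q genes stand higher at 7 days than at 1 day, and all groups on PLX5622 lie below the vehicle groups for Cx3cr1, where the naive vehicle mean is 148.

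Levels were also set beside those of naive mice on PLX5622. Against them 56 genes were called at 1 day (7.01%), 54 higher (6.76%) and 2 lower (0.25%); before adjustment 126 stood higher (15.8%) and 20 lower (2.5%). At 7 days 12 were called higher (1.5%) and 0 lower (0%), and before adjustment 90 stood higher (11.3%) and 6 lower (0.751%). Centring each mouse on its median moved the median of all genes at 1 day from 0.10 to -0.01 and the split to 37 higher and 10 lower; DESeq2 gave 50 and 18, and edgeR 46 and 15. At 7 days DESeq2 called 28 genes and edgeR 11. All 11 genes that fell between the days had been called higher at 1 day than in naive mice. At 7 days 1 of the 11, Lox, was still called above naive (1.36, adjusted p = 0.0149, after 2.92 at 1 day). Of the 8 genes that rose, 0 had been called lower at 1 day and 2 were called above naive at 7 days: Cx3cr1 (1.67, adjusted p = 0.00256) and Gja1 (0.71, adjusted p = 0.0467). These comparisons share mice with the comparison of days, so they describe levels and give no separate support.

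The same step was set beside that of mice on vehicle. On vehicle 0 genes were called (0%) in limma, and 47 stood lower (5.88%) and 19 higher (2.38%) before adjustment, while DESeq2 called 14 and edgeR 9. All 11 falls and 7 of the 8 rises had the same sign on vehicle, where the sign matched for 485 of all 799 genes (60.7%). At an unadjusted p under 0.05 on vehicle stood 9 of the 11 falls and 4 of the 8 rises. Lox stood at -1.28 ± 0.35 on vehicle, Cd44 at -1.53 ± 0.45, Tnfrsf12a at -1.53 ± 0.39 and Gja1 at 0.60 ± 0.21. Cx3cr1 was the exception, at -0.27 ± 0.34.

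**Figure D4:**
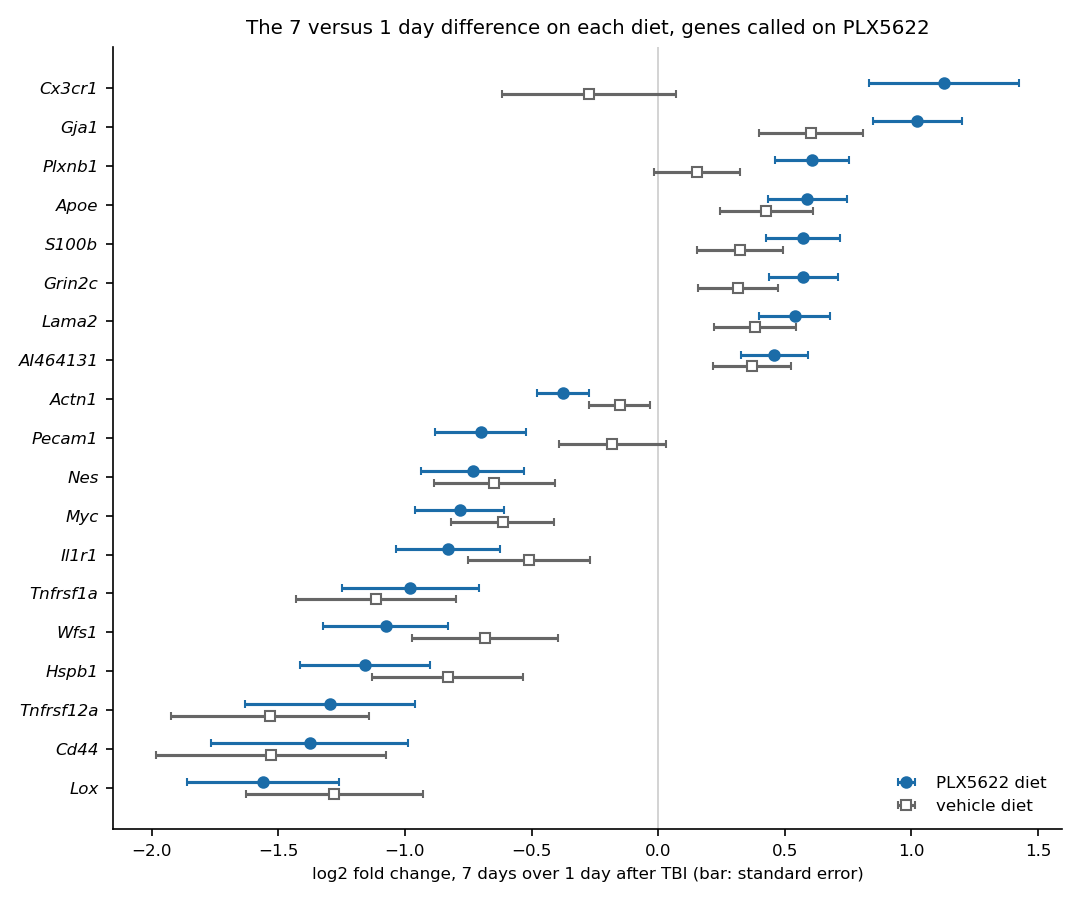
log2 fold change from 1 to 7 days after TBI (points, with the standard error as a bar) on PLX5622 and on vehicle, for the 19 genes called on PLX5622. The values have the same sign on both diets for 18 genes, and Cx3cr1 stands at 1.13 on PLX5622 and -0.27 on vehicle.

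Whether the step itself differed between diets was tested as an interaction, and 0 genes passed (0%). Before adjustment 18 stood under 0.05 (2.25%), 11 higher (1.38%) and 7 lower (0.876%), and DESeq2 and edgeR also called 0. The smallest p values belonged to Ccl12, a chemokine that draws monocytes (2.27 on the log2 scale, unadjusted p = 0.00317, adjusted p = 0.994), and Cx3cr1 (1.40 ± 0.45, unadjusted p = 0.00322, adjusted p = 0.994). For Ccl12 most of that value was a fall on vehicle, -1.55 ± 0.56, with means of 92.1 at 1 day and 40.1 at 7 days. On PLX5622 it stood at 0.72 ± 0.48 and was very low, with means of 3.81 and 6.12. C1qb (1.93 ± 0.75, unadjusted p = 0.0127) and C1qa (1.63 ± 0.69, unadjusted p = 0.0216) also stood under 0.05 before adjustment, each with adjusted p = 0.994. C1qc did not (1.42 ± 0.81, unadjusted p = 0.087). On vehicle C1qa, C1qb and C1qc stood at -0.32 ± 0.52, -0.31 ± 0.57 and -0.07 ± 0.62. Of the 19 called genes, Cx3cr1 and Plxnb1 (0.45 ± 0.22, unadjusted p = 0.0488) stood under 0.05 before adjustment. No called gene is therefore shown to change differently on the 2 diets.

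No gene of the neuronal, synaptic or myelin lists was called. In the neuronal identity list 0 of 12 genes were called (median -0.02), in the list of synaptic vesicles and release 0 of 15 (median -0.03), and among genes of GABA and interneurons 0 of 15 (median -0.04). The neuronal and synaptic medians changed sign when the 17 mice were fitted alone, and the neuronal one also with edgeR and when centred on reference genes. Oligodendrocyte and myelin genes had a median of 0.16 with 0 of 14 called, 11 values being positive and 3 negative. Pllp, plasmolipin, stood highest at 0.64 ± 0.20 (adjusted p = 0.0671, called without mouse 696, 701 or 740). Olig2, in the same list, went the other way at -0.52 ± 0.18 (adjusted p = 0.117, called without mouse 693). The interferon and antigen presentation list had 7 measured members, all positive, with a median of 0.31 and 0 called; Cxcl10, an interferon-induced chemokine, stood at 1.13 ± 0.55 (adjusted p = 0.33). Among stress and growth factor genes, Hmox1, which degrades heme, stood at -1.13 ± 0.35 (adjusted p = 0.0572, called without any of the mice 693, 696, 709, 725 and 734 in turn) and Bdnf, a neurotrophin, at -0.79 ± 0.23 (adjusted p = 0.0512, called without mouse 687, 693, 701 or 711).

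**Figure D5:**
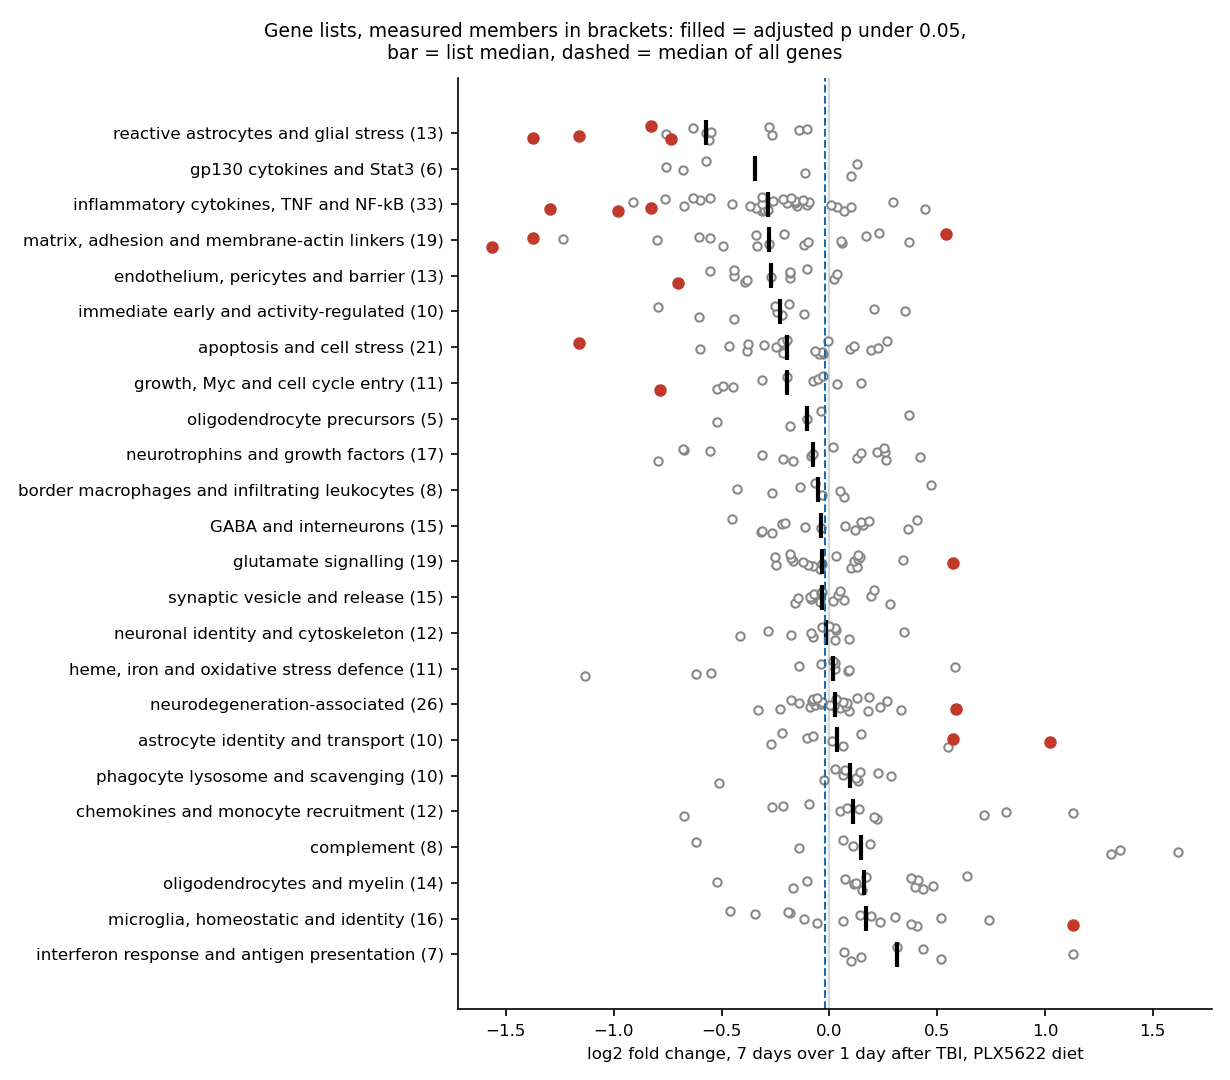
log2 fold change from 1 to 7 days after TBI on PLX5622 for each measured member of 24 gene lists, with the number measured in brackets; filled points are called, the bar is the list's median and the dashed line the median of all 799 genes (-0.02). The reactive astrocyte list has the lowest median (-0.57) and the interferon list the highest (0.31).

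With each of the 17 mice left out in turn, 8 of the 19 genes stayed called every time: Gja1, Plxnb1, S100b, Grin2c, Lox, Hspb1, Wfs1 and Myc. Il1r1 lost its call without mouse 719 (adjusted p = 0.0825), Pecam1 without mouse 719 or 723 (up to 0.121) and Lama2 without mouse 688 (0.0665). Cx3cr1 lost it without mouse 687, 719, 734 or 740 (up to 0.11), Tnfrsf12a without 703, 719, 723, 725 or 740 (up to 0.107), Apoe without 687, 688, 709, 719, 734 or 740 (up to 0.107), and Actn1 without 694, 703, 709, 719, 723 or 734 (up to 0.158). Nes lost it without 688, 694, 703, 717, 719, 723, 725, 739 or 740 (up to 0.187), AI464131 without 687, 688, 703, 709, 719, 725, 729, 734 or 740 (up to 0.192), Cd44 without 688, 694, 703, 717, 719, 723, 725, 729, 739 or 740 (up to 0.128), and Tnfrsf1a without 687, 688, 694, 703, 717, 719, 723, 725, 729, 739 or 740 (up to 0.147). No sign changed in any of these fits, and Cd44 stayed between -1.59 and -1.17 and Tnfrsf1a between -1.24 and -0.83.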

How the data were processed

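Cortical RNA of 55 mice was measured with the nCounter, 1 library per mouse. The deposited signal consists of linear barcode counts divided by 1 factor for each library. The submitters' processing notes name DESeq2, without a version, and the labels state no background step. RNA was pre-amplified, per the labels' protocols. Dividing by the value of 1 count gave whole counts for 100% of values at a tolerance of 0.02.

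Because the values are normalised, limma 3.58.1 in R 4.3.3 was used rather than a count test: log2(value + 1) was fitted with lmFit and a trended eBayes, all 55 mice in 1 fit, 8 group means and the cartridge (5 levels) as covariate, with p-values adjusted over 799 genes. The sources call the samples separate mice. Named genes are the called ones (up to 12 each way), up to 3 members of smallest p per list, the 4 smallest p of the interaction and 13 marker genes fixed by name; the text names fewer. The comparison, its members, the rule and the 24 lists were chosen with earlier results of these data known. Lists are described by counts and medians, with no set test. Alternatives were other covariates, scalings, filters, pseudocount and variance models, the compared groups alone, DESeq2 1.42.0 and edgeR 4.0.16 on recovered counts, and each mouse left out. The fit was tested on simulated data. Replicate libraries differed by more than counting error (lowest chi-square per degree of freedom 6.05). Symbols matched RefSeq, 792 directly and 7 by a synonym.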

Additional observations from a re-analysis of the deposited data

Results flagged for a closer look

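In the 60 groups of values examined (30 genes in each of the compared groups), 2 held a mouse far from the others, where chance alone marks about 1 in 20. For Lox at 7 days, mouse 694 had 8.12 normalised counts, and the next lowest mouse had 18.5. For Pecam1 at 1 day, mouse 719 had 852, and the next highest mouse had 389. Without mouse 719 the fall of Pecam1 was -0.54 (adjusted p = 0.121, not called), and without mouse 694 Lox remained called.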

How the results depend on the processing

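No paired analysis was possible because the groups share no mouse numbers and each mouse gave tissue at a single time point. The count of 19 genes between 7 and 1 days on PLX5622 became 57 with DESeq2, 39 with edgeR, 42 with each mouse centred on its median and 2 with the compared groups alone, where the spread is estimated from 17 mice in place of 55. It ran from 9 to 35 with 1 mouse left out. The 19 genes all stayed called with DESeq2, with edgeR, under both centrings, with both batches as covariates and without genes of low mean. The last filter took the mean over all 55 mice, vehicle groups included. Cx3cr1, with means of 5.81 and 13.7 in the compared groups and 148 in naive vehicle mice, passed it through the vehicle mice. For Cx3cr1 the filter is therefore no check. Of the 19 genes, 13 stayed called with no covariate, 15 with the extraction batch as covariate and 18 with a pseudocount of 10. No sign turned under any of these settings. Among gene lists the complement median moved, to 1.31 when genes of mean under 20 over all 55 mice were left out. The vehicle mice count in that mean and keep C1qa in, whose means were 6.86 and 24.7 in the compared groups and 165 in naive vehicle mice. The moved median is therefore no check on genes that are low in the compared mice. The interaction count stayed at 0 in every setting, with each mouse left out from 0 to 0. On vehicle the count of 0 became 1 with median centring, 14 with DESeq2 and 9 with edgeR. Against naive mice on PLX5622 the 1-day count of 56 became 37 with no covariate, and the 7-day count of 12 became 6 with no covariate, 3 with a pseudocount of 10 and 28 with DESeq2. The difference in total count ran from 89026 to 246723 with 1 mouse left out. The cause of these changes was not tested. Depth limits the lowest genes, such as Cx3cr1 with 2 to 9 counts per library at 1 day.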
